A study of Mus musculus with 15 samples.

Results

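The step from the signalled double-positive stage to the early CD4 single-positive stage of mouse thymocytes was examined across all genes, by comparing 3 samples labelled SM&M1 with 3 labelled PostDP, 6 of the 15 samples of the series. SM&M1 cells were CD4 single-positive thymocytes sorted as Qa2- and CD69+ from Rag2-GFP BAC transgenic mice, with NK1.1, CD25 and GL3 used to discard other cells and a GFP gate that keeps recently formed T cells. PostDP cells carried both CD4 and CD8 and were sorted as CD69+ and TCRβ+ from B2m-/- mice, which lack the light chain of MHC class I and so positively select T cells on MHC class II alone. Both lines were on C57BL/6 and the thymi came from young adults. The mouse line therefore changes with the stage in this comparison, and the part of each in a difference cannot be told apart. The other 9 samples were PreDP cells (CD69- TCRβ-) of B2m-/- mice, M2 cells (Qa2+ CD69-, the later CD4 single-positive stage) of Rag2-GFP BAC transgenic mice, and SM&M1 cells of Tak1f/f CD4Cre mice, with 3 samples each, and they entered the estimate of the spread. In the Tak1f/f CD4Cre mice Cre is driven by Cd4 regulatory sequence and deletes the kinase gene Tak1 (Map3k7) in T-lineage cells. The labels do not say whether animals were pooled or whether replicates came from separate animals, and what the tests use as error is the variation among the arrays of a group, some of which may be technical.

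Double-positive thymocytes rearrange their T cell receptor alpha genes with the RAG recombinase and then test the receptor on thymic stroma. Cells whose receptor binds self-peptide on MHC with moderate strength survive, move from cortex to medulla, and choose between the CD4 and CD8 lineages. The transcription factor ThPOK, the product of Zbtb7b, fixes the CD4 choice and Runx3 the CD8 choice. Single-positive cells then lose the genes of the double-positive stage and acquire survival receptors, responsiveness to cytokines, and the receptors needed to leave the thymus.

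One array was hybridised per sample, and its deposited signal was analysed as log2(signal + 16), called the log2 level below. A difference between log2 levels understates the true fold change of dim genes, and levels of different genes are not compared. Array medians lay between 94.20 and 121.46 in SM&M1 and between 107.93 and 112.97 in PostDP on the linear scale, and arrays of a group correlated at 0.969 or more in SM&M1 and 0.973 or more in PostDP. A Tak1f/f CD4Cre array stood apart (replicate 2, median 167.81, correlation with its group as low as 0.818), and a fit without it made 2726 calls in place of the 1423 given below. With 3 arrays per group, precision is limited by their number.

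Genes that define the sorts and the mouse lines were read first. B2m had log2 levels of 14.08, 14.27 and 14.72 in the SM&M1 arrays, against 10.17, 10.10 and 10.03 in the PostDP arrays, and a second B2m probe set averaged 14.16 in SM&M1 and 7.98 in PostDP. Where those probes lie relative to the deleted part of the gene was not examined here. Cd8a, which encodes the CD8 alpha chain, was at 8.03, 7.68 and 7.65 in SM&M1, against 12.93, 12.83 and 12.45 in PostDP. Cd8b1, the beta chain gene, was at 10.54, 10.28 and 10.21 against 13.41, 13.30 and 12.98. The groups did not overlap for either chain, which the sort selected on. Cd4 was at 12.02, 12.14 and 12.50 in SM&M1 and at 11.74, 11.26 and 11.42 in PostDP, a difference of 0.75 ± 0.19 (SE, limma adjusted p = 0.0212) that was lost under 6 of 18 alternative settings. The T cell receptor complex genes Cd3d, Cd3e, Cd3g and Cd247 were bright in all 6 arrays, between 12.67 and 14.34, and overlapped between the groups. Cd69, positive in both sorts, was at 12.36, 12.47 and 12.66 in SM&M1 and at 12.97, 13.39 and 13.47 in PostDP (difference -0.78, adjusted p = 0.199). Its groups did not overlap. The limma adjusted p of Cd69 was 0.00513 in a fit of the 12 arrays without Tak1f/f CD4Cre cells and 0.0199 in one of the 6 arrays compared. Cd4, Cd69 and the receptor complex genes were thus present in both groups. CD8 was reduced rather than at the bottom of the scale in the SM&M1 arrays. Qa2 differed from these markers, since SM&M1 cells were sorted as Qa2- but RNA assigned to its genes was higher in SM&M1. Signal matching both H2-Q9 and H2-Q7 averaged 12.32 in SM&M1 and 8.99 in PostDP, and the cause was not tested.

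Of 11871 genes tested, 1423 (12%) were called at an adjusted p under 0.05, 931 higher in SM&M1 (7.84%) and 492 lower (4.14%). The counts called in gene lists below are to be set against these shares. Among the calls 796 changed at least 2-fold, 552 of them higher and 244 lower. The median log2 difference over all tested genes was 0.03, and the groups failed to overlap for 40.9% of genes, 23.1% higher and 17.9% lower. The calls were then recomputed under 18 alternative settings, and 544 of them (371 higher and 173 lower) held under every setting that tested the gene. A stricter filter, at the 75th percentile of signal, tested only 1090 of the 1423. Leaving out PostDP replicate 2, PostDP replicate 3 or SM&M1 replicate 3 brought the count to 906, 874 and 871, a change of over 1.5 times. In the plot of all tested genes the calls spread over the whole range of levels.

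**Figure D1:**
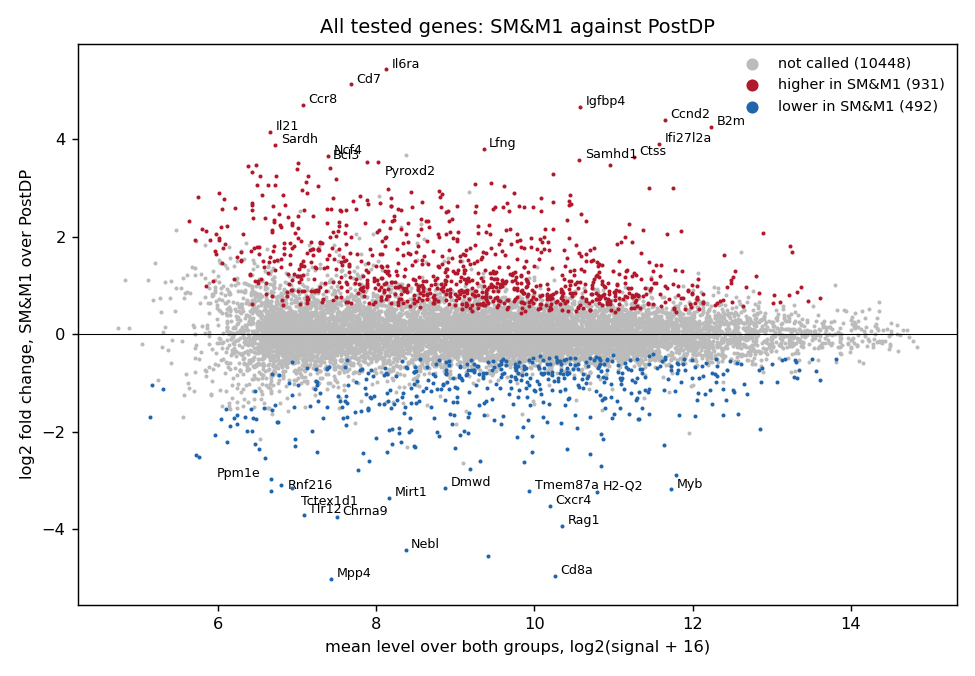
Log2 difference SM&M1 over PostDP (vertical axis) against the mean log2 level of both groups (horizontal axis), 1 point per tested gene. Red marks the 931 genes called higher in SM&M1, blue the 492 called lower and grey the rest, and the 15 largest rises and 15 largest falls of the naming rule carry their symbols, from Il6ra (5.43) to Mpp4 (-5.02).

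The largest rise was in Il6ra, the gene of the interleukin-6 receptor alpha chain. Its log2 levels were 10.68, 11.11 and 10.73 in SM&M1, against 5.48, 4.57 and 6.18 in PostDP, a difference of 5.43 ± 0.44 (SE) or 43.0-fold (adjusted p = 5.92e-06). A second Il6ra probe set moved by 0.56 only, and the mean of the gene's probe sets differed by 2.99. Cd7, an immunoglobulin-family surface receptor of T and NK cells, was at 10.31, 10.28 and 10.15 against 5.18, 5.18 and 5.01, or 34.8-fold higher. Ccr8, a chemokine receptor gene, was at 9.19, 9.62 and 9.44 against 5.09, 4.66 and 4.43 (25.9-fold). In all 3 genes the PostDP arrays sat near the bottom of the scale and every SM&M1 array lay far above them. Ccnd2, the gene of cyclin D2, which drives entry into the cell cycle, was already moderate in PostDP at 9.32, 9.47 and 9.58 and reached 13.72, 13.81 and 14.01 in SM&M1 (difference 4.39 ± 0.20), and its other 6 probe sets differed by 4.10 to 5.03.

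The remaining rises of the top 15 were of several kinds. Igfbp4, which binds insulin-like growth factors, rose by 4.66 ± 0.56 and the cytokine gene Il21 by 4.14 ± 0.44, with Il21 at 8.70, 8.69 and 8.81 in SM&M1 against 4.31, 4.50 and 4.97 in PostDP. Il21 differed by 2.85 on the mean of its probe sets and by 1.99 with a pseudocount of 1, and its second probe set differed by 1.56. Sardh, the mitochondrial sarcosine dehydrogenase, rose by 3.88 ± 0.37 and Pyroxd2, an oxidoreductase gene, by 3.52 ± 0.24. Lfng, a sugar transferase that modifies Notch receptors, rose by 3.81 ± 0.27, Ncf4, a subunit of the phagocyte-type NADPH oxidase, by 3.66 ± 0.40, and the lysosomal protease gene Ctss by 3.63 ± 0.35. The groups of each of these 7 genes were apart in every array. With the mean of all probe sets Lfng fell short at 2.02 and Pyroxd2 at 2.04, both still called.

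The largest fall was in Mpp4, which encodes a membrane-associated scaffold protein. It was at 5.84, 4.36 and 4.58 in SM&M1, against 9.74, 10.26 and 9.85 in PostDP (-5.02 ± 0.45, adjusted p = 1.22e-05). Chrna9, a nicotinic receptor subunit gene, was at 5.90, 5.28 and 5.73 against 9.73, 9.46 and 8.95 (-3.75 ± 0.29). Cxcr4, the receptor for the chemokine CXCL12 that holds immature thymocytes in the cortex, was at 8.78, 8.37 and 8.15 against 11.64, 12.25 and 11.96 (-3.52 ± 0.59). For these genes each SM&M1 array lay below each PostDP array. Myb, a transcription factor needed by double-positive cells, stayed well above the bottom of the scale at 10.91, 10.06 and 9.44, against 13.37, 13.38 and 13.20, and its other 2 probe sets moved by -3.93 and -3.55.

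Among the other named falls Nebl, which encodes the actin-binding protein nebulette, was at 8.27, 5.43 and 4.79 in SM&M1, against 10.70, 10.60 and 10.46 in PostDP. SM&M1 replicate 1 was the highest array of its group for this gene. Tlr12, a Toll-like receptor gene, had a difference of -3.70 ± 0.35 on one probe set and -0.11 on another. The long non-coding RNA Mirt1 was at -3.36 ± 0.33, Dmwd at -3.15 ± 0.21, the ubiquitin ligase gene Rnf216 at -3.10 ± 0.44 and the phosphatase gene Ppm1e at -2.97 ± 0.29. Tctex1d1, a dynein light chain gene, was at -3.16 ± 0.49, with SM&M1 replicate 1 the highest of its group again (6.33 against 4.79 and 4.96 in the other two). Tmem87a was at 8.38, 8.16 and 8.46 in SM&M1, against 11.64, 11.49 and 11.49 in PostDP (-3.21 ± 0.95, adjusted p = 0.0433). Its call was lost under 10 of the 18 settings, and its adjusted p was 7.37e-08 in a fit of the 12 arrays without Tak1f/f CD4Cre cells and 4.96e-05 in one of the 6 arrays compared. The Tak1f/f CD4Cre arrays, at 10.92, 6.19 and 11.60, entered the shared spread of the 15-array fit only.

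**Figure D2:**
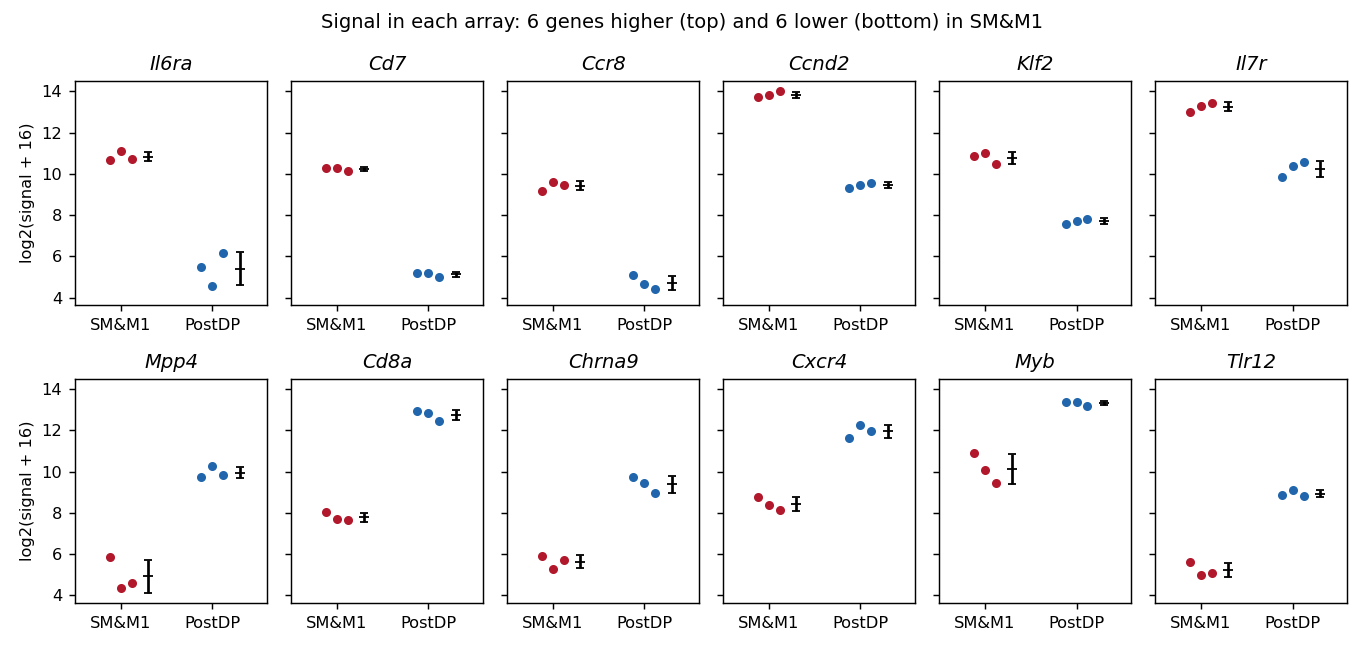
Log2 level, log2(signal + 16), of each array for 6 genes higher in SM&M1 (upper row) and 6 lower (lower row), with SM&M1 in red on the left and PostDP in blue on the right of each panel. Points are the 3 arrays in the order of their replicate numbers and the bar beside them is the mean ± SD, and no gene shown has overlapping groups.

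The plot of 12 genes by array sets these values side by side. Cd7 and Ccnd2 are nearly level within each group, whereas Il6ra in PostDP and Mpp4 and Myb in SM&M1 spread over more than a unit.

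Genes of the lineage choice moved in both directions. Of 26 tested lineage factors and coreceptors, 3 were called higher and 6 lower, against 7.84% and 4.14% of all genes, with a median of -0.38. Zbtb7b was at 10.60, 11.07 and 11.12 in SM&M1, against 8.76, 9.28 and 9.69 in PostDP (1.69 ± 0.24, adjusted p = 0.000488), and it was at 6.95 on average in PreDP and 10.63 in M2. Runx3 was called higher as well, at 9.26, 9.07 and 9.21 against 7.98, 7.98 and 8.29 (1.09 ± 0.15). Both factor genes, which are known to repress one another's programmes, thus had each SM&M1 array above each PostDP array. Prf1, the gene of the cytotoxic protein perforin, went down instead, at 7.11, 7.19 and 7.12 against 8.62, 8.71 and 8.64 (-1.51 ± 0.28). Of 11 CD8 single-positive markers, 2 were called higher (Runx3 and Ctsw, a cathepsin gene of cytotoxic lymphocytes, by 2.34 ± 0.20) and 3 lower (Cd8a, Cd8b1 and Prf1).

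Double-positive stage genes were lower as a group. Of 36 tested members 16 were called lower, none higher and 20 not at all, with a median of -0.92 against 0.03 for all genes, and the count called lower lay between 11 and 20 under the 18 settings. Rag1, a subunit gene of the recombinase, was at 10.55, 6.93 and 7.68 in SM&M1, against 13.01, 12.07 and 11.84 in PostDP (-3.92 ± 0.93, adjusted p = 0.0141, lost under 3 settings). Rag2 did not pass, at 7.76, 4.20 and 4.39 against 8.23, 7.32 and 7.28. SM&M1 replicate 1 was far above the other two SM&M1 arrays for both, and for Rag2 it overlapped the PostDP arrays. Aqp11, an aquaporin gene (-2.76), the RNase gene Endou (-2.59), Lig4, the ligase that joins the broken ends of receptor genes (-1.83 ± 0.37), and Themis, a T cell receptor signalling adaptor of thymocytes (-1.19 ± 0.15), were among those called lower. Cd24a, a surface marker of immaturity, was at 12.08, 11.85 and 11.71 against 13.83, 13.92 and 13.73 but lost its call under 9 settings. Without SM&M1 replicate 1 the list of double-positive stage genes had 17 members called lower.

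Of 28 genes of receptor gene recombination and double-strand break repair, 3 were called higher and 3 lower (21.4% in either direction, against 12% of all genes) and 22 were not called. Nbn, a sensor of double-strand breaks, was called higher (1.65 ± 0.23), as was the checkpoint kinase gene Atr (0.78 ± 0.17, lost under 2 settings). Lower were Rag1, Lig4 and Dntt, the template-free polymerase (-1.63 ± 0.49, lost under 9 settings). Without SM&M1 replicate 2, SM&M1 replicate 3 or PostDP replicate 1 only 1 was called lower.

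Signalling from the T cell receptor was described by its parts. The receptor complex and its proximal kinases and adaptors had 9 of 44 members called lower and 2 higher, with a median of -0.14. The Tec family kinase gene Tec was at 8.64, 8.25 and 8.19 in SM&M1, against 10.14, 10.09 and 9.70 in PostDP (-1.62 ± 0.30). Sla, an adaptor that promotes receptor turnover, was at 12.12, 12.11 and 12 against 13.32, 13.31 and 13.26, and Tespa1 at -1.21 ± 0.31, lost under 5 settings. Ubash3b, a phosphatase that dampens receptor signals, was called higher by 1.06 ± 0.20. Cd5, whose level tracks receptor signal strength, was at 13.24, 13.58 and 13.74 against 14.08, 14.08 and 14.13 and did not pass (adjusted p = 0.0717). Without SM&M1 replicate 1, PostDP replicate 2 or PostDP replicate 3 the count called lower in this group was 5, and the count called higher was 1 without SM&M1 replicate 2, SM&M1 replicate 3 or PostDP replicate 3.

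Transcription factors switched on early by the receptor had 6 of 27 members called lower and 2 higher (median -0.22), 11 lower and 2 higher in a fit of the 6 arrays alone, and 1 higher without SM&M1 replicate 1. Tox2 was at 10.13, 9.66 and 9.59 in SM&M1, against 11.91, 11.92 and 12 in PostDP, and Ikzf2, the Helios gene, at 11.45, 11.68 and 11.54 against 13.27, 13.27 and 13.09. Gfi1, a transcriptional repressor, was at -1.80 ± 0.30 and Id3, an inhibitor of E proteins, at -1.12 ± 0.22. Irf4 moved the other way, at 9.69, 9.96 and 9.61 against 6.24, 7.41 and 7.78 (2.61 ± 0.38, adjusted p = 0.00059). The groups of each of these genes did not overlap.

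Feedback regulators of the MAP kinase pathway had 4 of 20 members called lower and 2 higher (median -0.39). Dusp4, a phosphatase of ERK, was at 7.45, 7.84 and 7.97 in SM&M1, against 9.73, 9.91 and 9.89 in PostDP (-2.09 ± 0.22), and Spry1 was at -1.42 ± 0.30. The count called lower was 2 without PostDP replicate 2 or SM&M1 replicate 2. Rasa3, a GTPase-activating protein that turns Ras and Rap off, was called higher at 11.26, 11.54 and 11.13 against 9.03, 9.37 and 9.06. Among 43 ion channel and calcium genes 7 were called lower and 2 higher, including the potassium channel genes Kcna2 (-1.72 ± 0.33) and Kcna3 (-2.41 ± 0.68, lost under 6 settings) and the calcium-dependent kinase gene Camk4 (-1.34 ± 0.21), against Ppp3cc, a calcineurin subunit gene, at 1.11 ± 0.20. The count called lower was 4 without SM&M1 replicate 3, PostDP replicate 2 or PostDP replicate 3.

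Interferon-induced antiviral genes had the highest share called higher among the 40 lists in the plot of called members by list. Of 42 tested members 30 were called higher, none lower and 12 not at all, and all 42 had a positive difference, with a median of 1.49 against 0.03 over all genes. The count called higher lay between 23 and 35 over the 18 settings and was 26 without SM&M1 replicate 1. The list was chosen with earlier results of these data known, so it is no independent evidence of its direction. Ifi27l2a was at 13.40, 13.26 and 13.92 in SM&M1, against 10.52, 9.18 and 9.18 in PostDP. Samhd1, which destroys the DNA precursors that viruses need, was at 12.40, 12.31 and 12.37 against 8.83, 8.58 and 8.92, or 12-fold higher. Ifit1, which binds foreign RNA, was at 11.39, 11.68 and 11.68 against 9.79, 8.46 and 8.37. For Ifi27l2a and Ifit1, and likewise for Oas2 and Oasl2, PostDP replicate 1 was the highest array of its group by 0.76 units or more, and still below every SM&M1 array.

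Upstream of these effectors the pattern was uneven. Of 32 receptors, STATs, IRFs and nucleic acid sensors 10 were called higher and 1 lower. Tlr7, the endosomal sensor of single-stranded RNA, was at 8.59, 8.95 and 8.75 in SM&M1, against 6.24, 5.28 and 5.05 in PostDP (3.24 ± 0.49). The cytosolic RNA sensor genes Ifih1 and Dhx58 had differences of 2.05 ± 0.28 and 2.15 ± 0.53, with the call of Dhx58 lost under 4 settings, and the nucleic acid sensor gene Zbp1 one of 1.73 ± 0.21. The factor genes Irf7 (1.36 ± 0.36, lost under 4 settings) and Irf9 (1.30) were called higher. The type I receptor genes Ifnar1 and Ifnar2 were not called, at -0.22 and 0.41, and the interferon gamma receptor gene Ifngr1 was called lower at -0.98. Among 10 guanylate-binding proteins and immunity-related GTPases, which attack vacuoles that hold microbes, 4 were called higher and 1 lower. Iigp1 was at 11.50, 12.06 and 11.73 against 9.71, 8.78 and 8.85, Gbp2 at 11.74, 12.01 and 11.89 against 10.52, 10.71 and 10.64, and Irgm1 at 11.15, 11.29 and 10.63 against 10.24, 9.97 and 10.04.

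The promoters of these lists were searched for a motif known from interferon-responsive genes. A motif made of GAAA, any 2 bases and GAAA again (either strand), the core of an interferon-stimulated response element, was searched for in the 250 bases before each RefSeq start (build GRCm38.p6). It was present for 936 of 27025 genes with a promoter in the table, or 3.46%, and for 3.27% of the tested genes. Among called genes it was present for 6.44% of those higher and 2.04% of those lower. In the antiviral list it was found in 9 of 32 tested members with a promoter (28.1%) and in 7 of the 22 called higher (31.8%). Among the sensor and IRF genes it was found in 5 of 27 tested members with a promoter (18.5%) and in 1 of 7 called higher (14.3%). Among the guanylate-binding and immunity-related GTPases it was found in 6 of 7 tested members with a promoter, of which only 2 were called higher, both with the motif. The NF-κB-type motif made of GGGA, any 2 bases and TTCC (either strand) was found in 1.36% of all promoters, 1.84% of genes called higher and 0.77% of genes called lower. In the list of NF-κB subunits, inhibitors and kinases it was found in 4 of 24 tested members with a promoter (16.7%) and in 0 of 3 called higher. A match is a run of letters and not a shown binding site. The 3 stretches below are the 250 bases upstream of the start on the gene's strand. They were picked among named genes of these lists that were called higher and whose promoter holds the motif. They are therefore not typical of the lists. Capitals mark the matches, which overlap in Irgm1. The stretches lie at chr19:34640639-34640888 (plus strand, Ifit1), chr3:142620413-142620662 (plus strand, Gbp2) and chr11:48871421-48871670 (minus strand, Irgm1).
Ifit1: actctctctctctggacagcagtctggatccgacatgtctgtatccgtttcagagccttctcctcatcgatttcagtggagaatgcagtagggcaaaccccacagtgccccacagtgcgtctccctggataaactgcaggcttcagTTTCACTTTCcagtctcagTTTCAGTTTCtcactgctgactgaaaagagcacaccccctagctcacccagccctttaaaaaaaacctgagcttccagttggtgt
Gbp2: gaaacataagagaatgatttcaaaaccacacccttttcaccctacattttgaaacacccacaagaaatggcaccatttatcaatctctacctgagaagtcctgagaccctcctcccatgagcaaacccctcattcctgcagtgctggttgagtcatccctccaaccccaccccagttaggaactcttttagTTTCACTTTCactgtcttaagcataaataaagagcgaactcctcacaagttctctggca
Irgm1: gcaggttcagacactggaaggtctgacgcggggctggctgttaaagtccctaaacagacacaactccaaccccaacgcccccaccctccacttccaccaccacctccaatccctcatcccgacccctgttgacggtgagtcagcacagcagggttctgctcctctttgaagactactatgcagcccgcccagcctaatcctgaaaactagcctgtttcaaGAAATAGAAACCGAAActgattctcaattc

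In Ifit1 the motif occurs 2 times within the proximal promoter and in Gbp2 1 time, in each case on the opposite strand, where GAAA reads TTTC. Irgm1 has 2 overlapping matches. The differences of Ifit1, Gbp2 and Irgm1 were 2.71, 1.26 and 0.94, and a relation between matches and differences was not tested.

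MHC class I genes and the machinery that loads them were called higher in 10 of 22 cases and lower in 3, against 7.84% and 4.14% of all genes. The list holds B2m itself, the gene targeted in the PostDP line, and its difference of 4.26 was the largest of the list. H2-K1, a classical class I heavy chain gene, was at 13.88, 14.14 and 14.37 in SM&M1, against 12.31, 12.44 and 12.24 in PostDP (1.80 ± 0.32). Nlrc5, the transactivator of class I genes, was at 11.94, 12.21 and 11.98 against 10.30, 10.01 and 10.11 (1.90 ± 0.17). Psmb9, an immunoproteasome subunit gene, was at 1.67 ± 0.27, and the peptide transporter gene Tap1 at 1.29. None of 31 constitutive proteasome subunits was called in limma, and none of their differences exceeded 0.52 in size, with 2 higher and 1 lower at an unadjusted p under 0.05. In a fit of the 6 arrays 1 of them was called higher, and in a fit of 12 arrays 1 lower. H2-Q2 was called lower, at 9.73, 8.87 and 8.93 against 12.46, 12.28 and 12.48. Sequence shared between class I genes of the H2-Q group makes the assignment of such probe sets to 1 gene uncertain, and the B2m line differs between the groups here.

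NF-κB subunits, inhibitors and kinases were called at about the rate of all genes. Of 30 members 3 were called higher and none lower (10%, against 12% in either direction over all genes). Bcl3, an atypical IκB protein that binds the p50 and p52 subunits, was at 9.51, 9.82 and 9.61 in SM&M1, against 5.72, 6.17 and 6.47 in PostDP (3.53 ± 0.26, adjusted p = 3e-06). The ubiquitin-binding inhibitor gene Tnip1 (0.79 ± 0.19) and the ubiquitin ligase gene Birc3 (0.70 ± 0.18) were the others, lost under 2 and 5 settings. Nfkb2, Rel, Rela and Relb, the subunit genes tested, were at 0.06, 0.14, -0.25 and 0.30 and not called. Only 1 member was called without PostDP replicate 3 or SM&M1 replicate 2.

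TNF receptor family genes and their adaptors had 9 of 32 members called higher and 3 lower. Tnfsf11, the gene of RANK ligand, through which single-positive cells mature the medullary epithelium, was at 10.82, 11.08 and 10.81 in SM&M1, against 8.33, 8.25 and 8.31 in PostDP. Tnfrsf4 (OX40) was at 11.70, 11.70 and 11.97 against 9.28, 9.09 and 9.0, and Tnfrsf18 (GITR) at 12, 12.51 and 12.83 against 10.47, 10.44 and 10.01. The groups of these genes did not overlap. The ligand gene Tnfsf14 was called lower (-1.54 ± 0.22) and the adaptor gene Traf5 higher (1.46 ± 0.27).

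**Figure D3:**
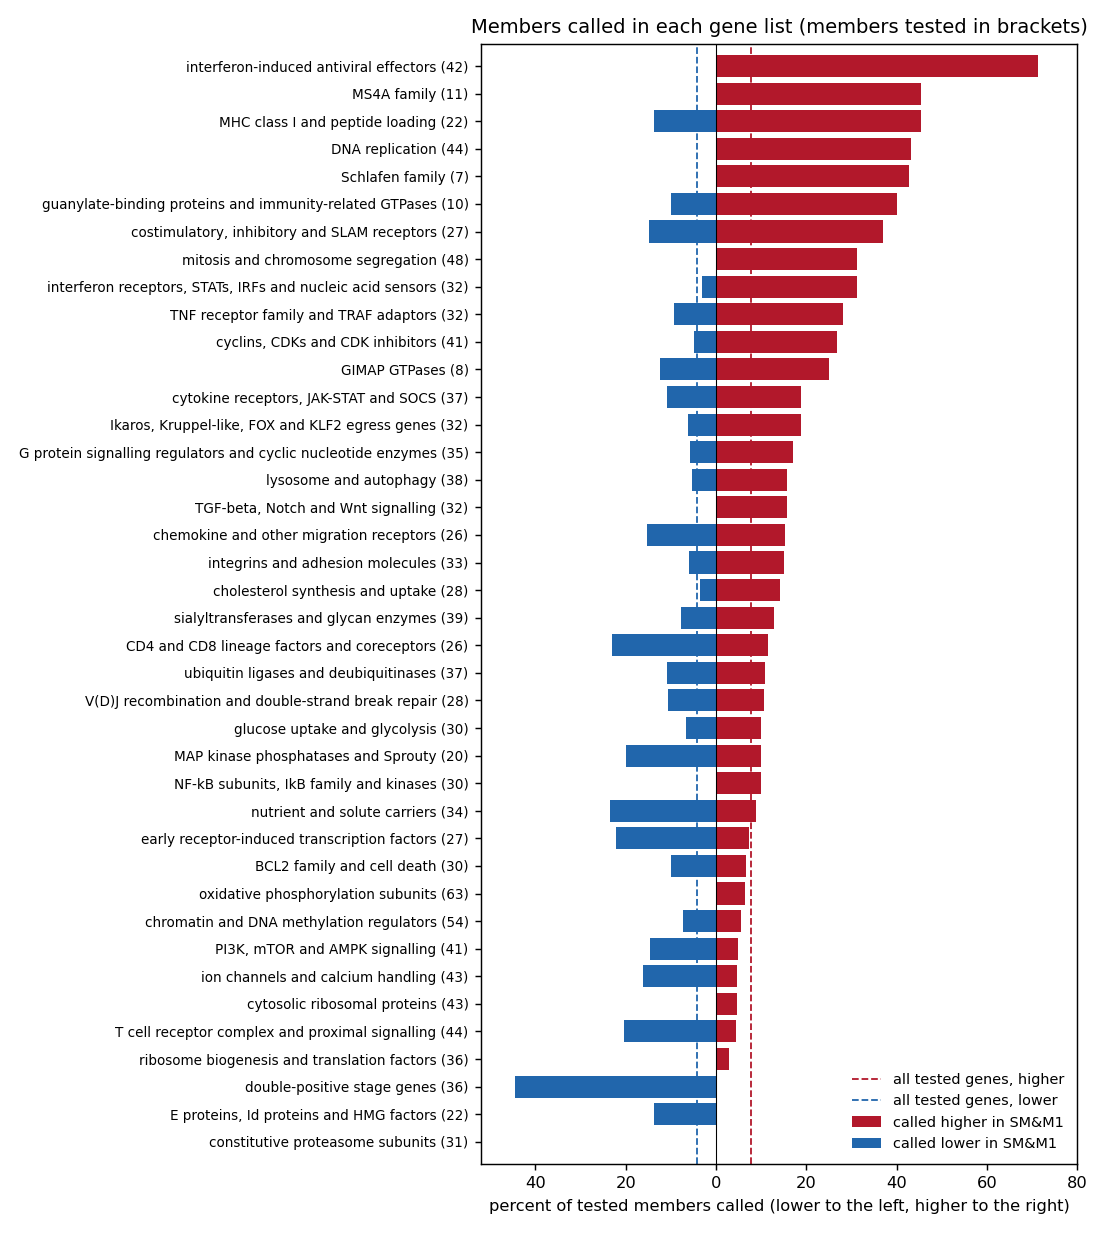
Percent of tested members called higher in SM&M1 (red, right) or lower (blue, left) for each of 40 gene lists, with the number tested in brackets. Dashed lines mark the shares over all tested genes, 7.84% higher and 4.14% lower, and antiviral effectors have the highest share called higher and double-positive stage genes the highest share called lower.

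The plot of called members by list orders these groups by the share called higher. Below the antiviral genes come the MS4A family, MHC class I and peptide loading, and DNA replication.

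Genes of DNA replication were called higher in 19 of 44 cases and never lower, with a median of 0.79, and 42 of the 44 differences were positive. The groups did not overlap, with SM&M1 higher, for 37 of them, against 23.1% of all genes. Pole, the leading-strand polymerase, was at 9.25, 8.5 and 8.55 in SM&M1, against 6.62, 4.62 and 4.52 in PostDP (3.52 ± 0.64, adjusted p = 0.00293). Cdc6, which licenses origins of replication, was at 8.91, 8.42 and 8.39 against 6.94, 5.78 and 4.33 (2.89 ± 0.61). Tk1, a thymidine kinase gene expressed in S phase, was at 9.27, 9.04 and 8.92 against 7.08, 6.69 and 5.23 (2.74 ± 0.48). Rrm2, the ribonucleotide reductase subunit, was at 11.79, 11.25 and 11.38 against 10.35, 7.86 and 7.84, and lost its call without PostDP replicate 2 or 3. In every one of these SM&M1 replicate 1 was the highest of its group and PostDP replicate 1 the highest of its own, without overlap.

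Mitosis and chromosome segregation genes went the same way, 15 of 48 called higher and none lower, with a larger median of 1.26. Nuf2, a kinetochore protein gene, was at 9.48, 8.82 and 8.96 in SM&M1, against 7.98, 4.70 and 5.05 in PostDP (3.18 ± 0.72). Melk, a mitotic kinase gene, was at 8.41, 7.77 and 7.88 against 6.09, 4.34 and 4.43, and Ncapg, a condensin subunit gene, at 8.19, 7.85 and 7.91 against 5.97, 4.93 and 4.51. The checkpoint kinase gene Bub1 differed by 3.04 ± 0.75 and the proliferation marker gene Mki67 by 2.63. Without PostDP replicate 1 the count called higher was 21, and it was 5 when PostDP replicate 2 was left out, 8 when PostDP replicate 3 was and 7 when SM&M1 replicate 1 was. In a fit of the 6 arrays alone 26 mitosis genes were called higher and 1 lower, and 32 replication genes higher and 1 lower. For replication the counts were 12 and 11 without PostDP replicate 2 and 3, and 13 without SM&M1 replicate 1.

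Cyclins and their partners followed in part, with 11 of 41 members called higher and 2 lower. Apart from Ccnd2, these included Cdk1, the mitotic kinase (2.97 ± 0.74), cyclin A2 (Ccna2, 2.10 ± 0.57) and the repressor gene E2f8 (2.54 ± 0.67), lost under 4, 6 and 5 settings. The count called higher fell to 5 when PostDP replicate 2 was left out, to 4 for PostDP replicate 3, to 5 for SM&M1 replicate 1 and to 7 for SM&M1 replicate 3, and the count called lower was 1 without any 1 of the arrays other than PostDP replicate 2. The survivin gene Birc5, also a mitotic gene, was at 11.04, 9.73 and 10.04 in SM&M1, against 9.24, 6.11 and 6.84 in PostDP.

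Seen along all 4 stages, the cell cycle genes were lowest in PostDP. Relative to the PostDP mean, the median over 44 replication genes was 1.38, 0.82 and 1.0 in the PreDP arrays, 0.14, -0.02 and -0.12 in PostDP, 1.0, 0.72 and 0.84 in SM&M1, and 0.86, 0.39 and 0.44 in M2. For 48 mitosis genes it was 2.73, 1.19 and 1.48 in PreDP, 0.59, -0.39 and -0.24 in PostDP, 1.87, 0.93 and 1.01 in SM&M1, and 2.16, 1.23 and 1.04 in M2. Replicate 1 was the highest array of its stage each time. A bulk sample does not tell a larger share of dividing cells from more of these RNAs per cell. The same medians for antiviral genes were 0.28, -0.12 and -0.15 in PostDP, 1.49, 1.42 and 1.5 in SM&M1, and 1.77, 1.74 and 1.83 in M2.

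**Figure D4:**
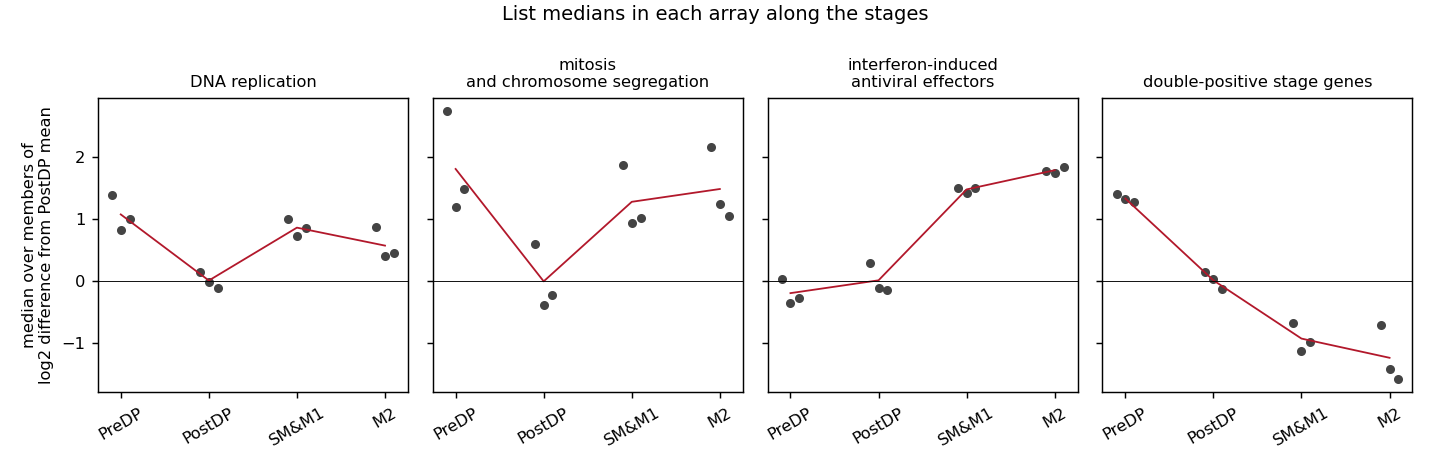
Median over the members of 4 gene lists of the log2 difference from the PostDP mean, for each of the 3 arrays of PreDP, PostDP, SM&M1 and M2 in stage order. Points are arrays in the order of their replicate numbers and the line joins the stage means. Replication and mitosis genes are lowest in PostDP, antiviral genes are higher in SM&M1 and M2, and double-positive stage genes decline over the stages.

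The E2F-type motif TTTCCCGC or TTTGGCGC (either strand) was found in 1.51% of all promoters, 2.91% of tested genes and 6 of 37 tested replication genes with a promoter (16.2%), in 2 of the 17 among those called higher (11.8%), and in 2.50% of genes called higher and 3.57% of genes called lower. Among mitosis genes it was found in 2 of 40 tested and in 0 of 13 called higher. The Cdc6 promoter is given as an example, chosen after the values were seen, at chr11:98907901-98908150 (plus strand), with the match, which lies on the opposite strand, in capitals.
Cdc6: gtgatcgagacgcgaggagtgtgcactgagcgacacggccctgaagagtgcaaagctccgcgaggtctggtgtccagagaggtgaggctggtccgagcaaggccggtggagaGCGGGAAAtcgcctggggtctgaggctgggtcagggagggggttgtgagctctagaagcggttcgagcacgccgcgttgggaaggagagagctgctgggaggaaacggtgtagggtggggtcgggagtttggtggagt

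Migration genes changed in both directions. Of 26 chemokine and other migration receptors 4 were called higher and 4 lower. Besides Ccr8 and Cxcr4, Ccr7, which draws single-positive cells to the medulla, was at 12.78, 12.96 and 13.12 in SM&M1, against 10.02, 9.85 and 9.97 in PostDP (3.01 ± 0.27). Gpr18 was at 11.74, 11.66 and 12.01 against 9.09, 8.97 and 9.14, and the semaphorin gene Sema7a at 7.46, 7.19 and 7.36 against 9.47, 9.98 and 9.41. Each of these groups was tight and apart from the other. Klf2, the transcription factor required for thymic exit, was at 10.87, 11.03 and 10.46 against 7.55, 7.74 and 7.82 (3.08 ± 0.20). Its target S1pr1, the receptor through which thymocytes follow sphingosine phosphate out of the thymus, was at 9.73, 9.81 and 9.41 against 7.46, 7.33 and 7.67 (2.16 ± 0.47), and at 11.75 on average in M2. Of the 32 genes of the Ikaros, Krüppel-like, FOX and egress list 6 were called higher and 2 lower.

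Adhesion genes had 5 of 33 members called higher and 2 lower, with none lower without SM&M1 replicate 1, SM&M1 replicate 2, PostDP replicate 1 or PostDP replicate 2, and 1 without SM&M1 replicate 3 or PostDP replicate 3. Itgb3, the integrin beta 3 chain, was at 11.66, 12.01 and 11.94 in SM&M1, against 8.98, 8.28 and 8.52 in PostDP (3.28 ± 0.38), and Itgb7, a gut-homing integrin chain, at 10.83, 11.15 and 10.85 against 8.69, 8.97 and 9.22. The tetraspanin gene Cd9 rose by 2.35 ± 0.34. Cd44, the hyaluronan receptor, was at 0.82 ± 0.20 and lost its call under 6 settings.

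Cytokine receptor genes had 7 of 37 members called higher and 4 lower. Il7r, the receptor chain through which interleukin-7 keeps single-positive cells alive, was at 13.01, 13.29 and 13.45 in SM&M1, against 9.83, 10.37 and 10.56 in PostDP (2.99 ± 0.26, 7.97-fold), and at 6.00 on average in PreDP. Il2rb, shared by the interleukin-2 and interleukin-15 receptors, was at 9.23, 9.41 and 9.11 against 6.56, 7.31 and 6.88. Tgfbr3, a co-receptor of TGF-beta, was at 11.03, 11.49 and 11.03 against 8.29, 8.31 and 8.28, although its probe sets together differed by 1.49. Il12rb1 was called lower (-2.0 ± 0.34). Of 30 survival and death genes of the BCL2 family 2 were called higher and 3 lower (16.7% in either direction, against 12% of all genes), with none called higher without SM&M1 replicate 2, SM&M1 replicate 3 or PostDP replicate 3 and 1 without any of the other arrays. The pro-apoptotic genes Bcl2l11 (Bim) and Bmf were lower by -1.15 ± 0.22 and -1.40 ± 0.24, with Bcl2l11 at 11.75, 11.75 and 12.32 against 13.08, 13.10 and 13.08. Bcl2 itself was at 0.91 ± 0.23 and lost its call under 6 settings, one of them the mean of its probe sets (0.22, adjusted p = 0.473), and its 4 other probe sets lay between -0.29 and 0.34.

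Costimulatory, inhibitory and SLAM receptors had 10 of 27 called higher and 4 lower, against 7.84% and 4.14% of all genes. Ctla4, an inhibitory receptor gene, was at 9.28, 9.41 and 8.61 in SM&M1, against 7.59, 7.13 and 6.19 in PostDP, and Izumo1r, the folate receptor 4 gene, at 11.70, 11.84 and 12.36 against 10.06, 10.24 and 10.08. Nt5e, the gene of CD73, which makes adenosine, was at 2.65 ± 0.51, but at 1.10 on the mean of its probe sets, and its call was lost with a pseudocount of 1 (adjusted p = 0.118). In the Schlafen family 3 of 7 were called higher, with the quiescence-linked Slfn1 at 10.88, 11.52 and 11 against 8.63, 7.64 and 8.06. In the MS4A family of membrane proteins 5 of 11 were called higher, with Ms4a4b at 13.85, 13.85 and 14.09 against 12.01, 11.84 and 11.74, and 3 without PostDP replicate 2, PostDP replicate 3 or SM&M1 replicate 2. GIMAP GTPase genes, which support lymphocyte survival, were split. Gimap4 (1.69 ± 0.25) and Gimap3 (1.51 ± 0.27) were called higher and Gimap5 lower (-0.84 ± 0.20, lost under 5 settings, among them without SM&M1 replicate 1, SM&M1 replicate 3, PostDP replicate 1 or PostDP replicate 2), out of 8 tested.

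Genes of respiration, protein synthesis and metabolism were counted next. Oxidative phosphorylation subunits had 4 of 63 called higher (median 0.23), cytosolic ribosomal proteins 2 of 43 (median 0.16) and ribosome biogenesis and translation factors 1 of 36 (median 0.19), with none lower in these lists. All 3 shares were below the 7.84% of all genes. Their positive medians came with 54 of 63, 37 of 43 and 23 of 36 positive differences. SM&M1 lay above PostDP without overlap for 32 of the 63, 10 of the 43 and 12 of the 36, against 23.1% of all genes. For oxidative phosphorylation the count was 1 without SM&M1 replicate 1, SM&M1 replicate 3 or PostDP replicate 2, 2 without PostDP replicate 1 and 0 without PostDP replicate 3, and without PostDP replicate 3 it was 1 for ribosomal proteins and 2 for biogenesis factors. In glycolysis 3 of 30 were called higher and 2 lower (16.7% in either direction, against 12% of all genes), among them the pyruvate kinase gene Pkm (1.0 ± 0.18) and Pfkp (-0.90 ± 0.16). In glycolysis 1 was called higher without SM&M1 replicate 3, and 1 lower without any 1 array. In cholesterol synthesis and uptake 4 of 28 were called higher and 1 lower (17.9% in either direction), a count called higher that was 0 when PostDP replicate 3 was left out, 2 for SM&M1 replicate 2 and 1 for each of the other arrays.

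Several regulatory lists held single large changes. Over all genes 7.84% were called higher and 4.14% lower. Nutrient and solute carriers had 8 of 34 members called lower and 3 higher, with the amino acid transporter gene Slc6a19 at 7.38, 6.58 and 7.27 in SM&M1, against 9.54, 9.46 and 8.99 in PostDP, and the aquaglyceroporin gene Aqp9 at 2.53 ± 0.30. The count called lower was 5 without PostDP replicate 1 or 3. PI3K and mTOR pathway genes had 6 of 41 lower and 2 higher, with the lipid kinase gene Pik3cg at -1.10 ± 0.14 and the survival kinase gene Pim2 at 1.27 ± 0.23, and 3 lower without PostDP replicate 1 or 3. Sialyltransferases and glycan enzymes had 5 of 39 higher and 3 lower. St8sia6, which builds disialic acids on surface glycans, was at 9.51, 9.86 and 9.39 against 7.22, 6.95 and 6.95. In that list 3 were called higher without SM&M1 replicate 2, SM&M1 replicate 3, PostDP replicate 2 or PostDP replicate 3.

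In the TGF-beta, Notch and Wnt list 5 of 32 genes were called higher and none lower, against 7.84% and 4.14% of all genes. Smad7, an inhibitor of TGF-beta signals, was at 10.91, 10.97 and 10.39 in SM&M1, against 8.20, 8.13 and 8.25 in PostDP, and Dtx1, a Notch-regulated ubiquitin ligase gene, at 11.04, 11.23 and 11.10 against 8.84, 8.20 and 8.42. The count was 3 without PostDP replicate 2 or 3 or any 1 of the SM&M1 arrays, and 1 was called lower without PostDP replicate 3. G protein regulators had 6 of 35 higher and 2 lower, including Rgs1 (2.31 ± 0.40), which dampens chemokine receptor signals, and none was called lower without SM&M1 replicate 1, SM&M1 replicate 3 or PostDP replicate 3 and 1 without any of the other arrays. Ubiquitin ligases and deubiquitinases had 4 of 37 higher and 4 lower, with Cbl, a ligase that turns receptor signals off, at -0.90 ± 0.13, and with 2 lower without any 1 array other than SM&M1 replicate 2. Chromatin regulators had 3 of 54 higher and 4 lower, or 13% in either direction, near the 12% of all genes. Among them were the DNA methyltransferase gene Dnmt3b at 1.39 ± 0.22 and the deacetylase gene Hdac7 at -1.20 ± 0.29. Without SM&M1 replicate 1 the count of chromatin regulators called lower was 2. Lysosome and autophagy genes had 6 of 38 higher and 2 lower, with 2 higher without SM&M1 replicate 3 or PostDP replicate 3 and 3 without SM&M1 replicate 2, and with 1 lower without any SM&M1 array or PostDP replicate 2. Of the cathepsins that process the class II invariant chain, Ctss is given above and Ctsl was at 10.07, 9.71 and 9.75 against 11.65, 11.59 and 11.40. E proteins, Id proteins and HMG factors had 3 of 22 lower and none higher, or 13.6% in either direction, near the 12% of all genes. In a fit of the 6 arrays 7 of them were lower and 4 higher.

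Markers of other cells were read in each array, since a sort can hold other cells. SM&M1 replicate 1 stood apart. The summed linear signal of 19 macrophage and monocyte markers was 3656, 1115 and 1256 in SM&M1 replicates 1, 2 and 3, against 1323, 1518 and 1331 in PostDP. That of 10 neutrophil markers was 4379, 646 and 988 against 570, 454 and 546, and that of 17 NK and innate-like T cell markers 6412, 1667 and 1526 against 1758, 1554 and 1693. S100a8, a neutrophil and monocyte gene, was at 10.83, 5.41 and 5.4 against 5.71, 5.0 and 6.34, and the cytotoxic gene Gzma at 11.13, 7.25 and 6.65 against 9.02, 9.10 and 9.30. Other arrays of the series also had high sums for these 3 lists, though of those given next only M2 replicate 1 exceeded SM&M1 replicate 1 in each list. The sums were 3761, 4487 and 6712 in M2 replicate 1, 4582, 4810 and 4425 in Tak1f/f CD4Cre replicate 2, and 4659, 6058 and 6314 in Tak1f/f CD4Cre replicate 3. SM&M1 replicates 2 and 3 were far below replicate 1 for these markers, and above the PostDP arrays only for the neutrophil sum. None of 10 tested macrophage markers was called in limma, nor had any an unadjusted p under 0.05, and in the neutrophil and NK lists 1 was called in each (Mmp9 and Il2rb), with 2 in the NK list without PostDP replicate 1. Mmp9 was high in all 3 SM&M1 arrays, at 8.63, 8.26 and 8.68 against 6.10, 6.39 and 6.23. Of the 931 genes called higher, SM&M1 replicate 1 was the array farthest from PostDP for 305, replicate 2 for 302 and replicate 3 for 324. Neither these counts nor the lack of macrophage marker calls can show the part of other cells. A gene carried by 1 array has a wide spread and is less easily called, as with Lyz1 (10.13, 4.35 and 5.79 in SM&M1, not called). That part was not tested beyond the counts without SM&M1 replicate 1, which were 635 higher and 342 lower.

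**Figure D5:**
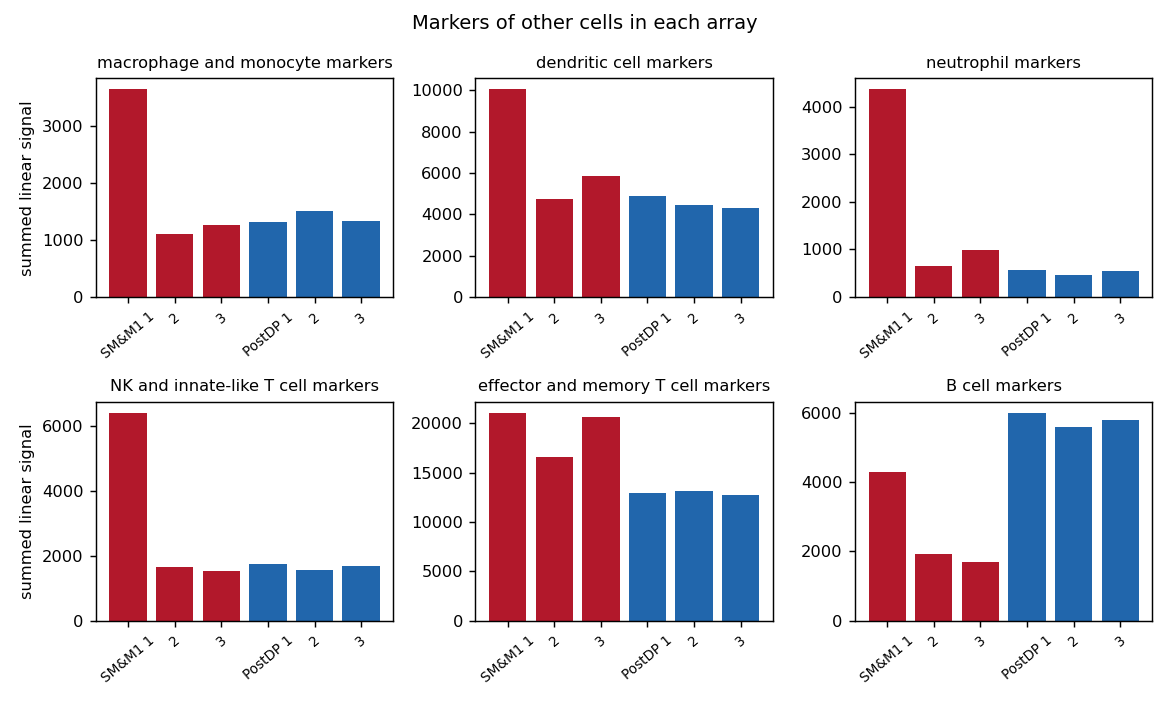
Summed linear signal of 6 lists of markers of other cells (vertical axes start at 0) in each array, with the 3 SM&M1 arrays in red on the left and the 3 PostDP arrays in blue on the right. SM&M1 replicate 1 is the highest array for macrophage, dendritic cell, neutrophil and NK markers, and the PostDP arrays are the highest for B cell markers.

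The plot of marker sums shows that effector and memory markers were higher in every SM&M1 array (21098, 16560 and 20655 against 12930, 13127 and 12739), with 2 of 13 tested called higher and 1 without any 1 array other than SM&M1 replicate 3. B cell markers, at 4284, 1922 and 1680 against 6006, 5581 and 5782, had 2 of 8 called lower, Ighm and Cd79b, and 1 without any 1 array other than SM&M1 replicate 1. The PreDP means of these genes were 13.36 and 10.55. Ighm differed by -1.73, but by -0.15 on the mean of its probe sets (adjusted p = 0.774), with another tested probe set at 2.19, and Cd79b lost its call under 6 settings. Relative to the PostDP mean, the median over the 8 tested B cell markers was 0.45, -0.29 and -0.38 in SM&M1, and 0.14, -0.08 and -0.1 in PostDP. By this median, unlike the sum, SM&M1 replicate 1 was the highest array. Which cells carried the B cell marker RNAs was not tested. Dendritic cell markers had 1 called higher, the class II invariant chain gene Cd74, at 11.79, 10.85 and 11.01 against 9.33, 8.87 and 8.99.

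Regulatory T cell markers had 7 of 10 called higher and 1 lower, in all of the 18 settings, although CD25+ cells were discarded from the SM&M1 sort. The genes higher were Tnfrsf4, Ikzf4, Gpr83, Tnfrsf18, Ctla4, Izumo1r and Capg, and the one lower was Ikzf2. Foxp3, which defines regulatory T cells, was below the limit for testing, at 6.09, 6.37 and 6.53 in SM&M1, against 6.17, 5.88 and 6.74 in PostDP. Il2ra, the CD25 gene, was at 7.47, 6.95 and 7.12 against 7.0, 6.66 and 6.22 and was not called (limma adjusted p = 0.461). Its other probe set averaged 7.27 in SM&M1 and 5.81 in PostDP, a difference of 1.45. On the mean of its probe sets Il2ra differed by 1.0 and was not called either (limma adjusted p = 0.202). Of 17 stress and dissociation genes 3 were called higher and 1 lower. The heat shock genes Hspa1b and Hspa1a were highest in SM&M1 replicate 3 (12.15 and 9.08, against 10.57 or less and 7.71 or less in the other two), and without that array none of the list was called higher, and 1 was without PostDP replicate 2 or 3.

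The mouse line was looked for in the values in other ways. Of the 10 tested genes nearest to B2m on chromosome 2, with 5 on each side, 4 were called (40%), and of the nearest 100, 19 were called (19%), against 12% over all genes and 12 of the 100 nearest to Rag1 on the same chromosome. The called neighbours of B2m included Tmem87a (-3.21), AA467197 (-3.22), Sqor (3.05) and Patl2 (-0.66). Calls near B2m were more frequent than the background, and whether flanking sequence of the targeted allele has a part in them was not tested. Xist, transcribed in female cells, was at 13.28, 13.30 and 13.78 in SM&M1, against 13.99, 7.60 and 13.72 in PostDP, and the Y-linked Eif2s3y at 10.40, 10.62 and 9.62 against 4.17, 11.33 and 4.11. Each SM&M1 array thus held both transcripts and each PostDP array held 1 of them, and neither gene was called. Over the chromosomes the share called ran from 10.1% on chromosome 10 to 15.0% on chromosome 4.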

How the data were processed

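RNA of sorted thymocytes was amplified in a single round and labelled with biotin, per the labels' protocols, and hybridised to 1 Affymetrix array per sample. The authors deposited 1 linear intensity value for each of 45101 probe sets. In the values, each array's mean without the lowest and highest 2% was 500.0. The summarisation software is not given in the sources used here. Probe sets with 1 gene (34945) were named from GEO's platform annotation, and symbols were updated through RefSeq (34741 kept a current symbol). Probe sets with several genes (932), none (9160) and controls (64) were kept out of the gene table.

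Each gene was represented by its brightest probe set. Of 18193 genes, 11871 above their array's median in at least 3 arrays were tested. Log2(signal + 16) was fitted with limma 3.58.1 (lmFit and eBayes, R 4.3.3) over 15 arrays in 5 groups, with 10 residual degrees of freedom and Benjamini-Hochberg adjustment. The test was also tried on simulated data built from the means and spreads of these arrays. The members and the 53 gene lists (1678 genes, 1507 measured, 1382 tested) were chosen with earlier results of these data known. The result of 1 list is not reported here. Named are the 15 largest rises and falls among non-overlapping calls of at least 2-fold, up to 5 members per list, check genes, and the markers highest in 1 SM&M1 array; other genes were named after their values were seen. Promoters came from RefSeq. Same-numbered replicates of SM&M1 and PostDP correlated at -0.01, 0.12 and 0.03 in their deviations, so the numbers were not taken as pairs. Same-numbered arrays of SM&M1 and M2, from 1 mouse line, correlated at 0.553, 0.436 and 0.326, and those of PreDP and PostDP at 0.339, 0.275 and 0.411, while the fit treats these arrays as independent. Alternatives changed the arrays fitted, filter, normalization, pseudocount and probe set rule.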

Additional observations from a re-analysis of the deposited data

Results flagged for a closer look

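Probe sets without a gene name stayed out of the comparisons above, and 259 of the 3801 tested were called, 71 higher in SM&M1 and 188 lower. The largest rises were in an unnamed probe set at 8.94 ± 0.33 in SM&M1 and 4.69 ± 0.26 in PostDP (SD, n = 3 each), a log2 difference of 4.25, and in another with a difference of 3.36. The largest falls were in a probe set with a difference of -4.88 and in one with -3.83. H2-Q7 and H2-Q9 share a probe set. They are among the genes of the sort marker Qa2, and the probe set was at 12.47, 12.48 and 12 in SM&M1, against 9.58, 9.01 and 8.38 in PostDP. The difference was 3.33 ± 0.44 (SE), although SM&M1 cells were sorted as Qa2-. The probe set of H2-Q6 and H2-Q8 averaged 10.80 ± 0.09 in SM&M1 and 9.49 ± 0.05 in PostDP, and one that also holds H2-Q4 averaged 11.74 ± 0.16 and 10.66 ± 0.18. No cause of these values was tested.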

How the results depend on the processing

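Directions of the counts held throughout, with more genes called higher than lower in SM&M1 under each of 18 alternative settings. The fit of the 6 arrays made 2467 calls (1523 higher, 944 lower), that of the 12 arrays without Tak1f/f CD4Cre cells 2562 (1556 and 1006), that of 14 arrays without the outlying one 2726 (1654 and 1072), and median centring 825 (579 and 246). Leaving out 1 array gave 871 to 1025 calls, 549 to 694 higher and 287 to 348 lower. In alternatives chosen after seeing the data, leaving out 1 array of the 12-array fit gave 1759 to 2108 calls, 1091 to 1256 higher and 623 to 852 lower (740 without SM&M1 replicate 1). The fit with a replicate block made 1825 calls (1186 and 639), with numbers that do not pair SM&M1 with PostDP. Arrays of 1 mouse line did share deviations by number, and with that number as a random block (consensus correlation 0.619), also chosen after seeing the data, 1222 genes were called (807 and 415), among them 1204 of the 1423. Values of named genes and lists under the 18 settings were sorted by 2 rules. A gene was unchanged if it stayed on its side of the threshold, and a list count if it changed by at most 1.5 times. By these rules 5141 values were unchanged, 313 lost a call, 10 gained one, 320 counts moved and none reversed, and the cause was not tested. Averaging all probe sets of a gene turned the sign of 9 of the 1423 calls. It also brought Nebl to -2.80, Dmwd to -1.92, Tlr12 to -1.90, Slfn1 to 1.59, Aqp9 to 1.57, E2f8 to 1.20, Dhx58 to 1.10, Prf1 to -0.97, Traf5 to 0.90, Bmf to -0.79 and Kcna2 to -0.78, all still called, and ended the calls of Birc3 (0.27, adjusted p = 0.73), Cd4 (adjusted p = 0.299) and Atr (adjusted p = 0.286). Among 105 called named genes with another probe set above the limit, 97 had all of them in the same direction, and in 66 all of them also differed by 50% or more of the main size. Signals near the bottom of the scale limit the size of differences.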
